A study of Drosophila melanogaster with 4 samples.

Results

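Expression of 10 autophagy genes was compared across young and old whole flies kept with and without curcumin in the food: Atg1, Atg2, Atg5, Atg6, Atg7, Atg8a, Atg8b, Atg9, Atg12 and ref(2)P. They were chosen by gene symbol, and each had exactly 1 probe set on the array, so the set holds 10 of the 11982 genes with a value. The probe sets were 1627886_at for Atg1, 1632297_at for Atg2, 1641621_at for Atg5, 1636499_at for Atg6, 1637240_a_at for Atg7, 1639467_at for Atg8a, 1630629_at for Atg8b, 1626033_at for Atg9, 1633586_at for Atg12 and 1627212_at for ref(2)P. RNA came from pools of Canton-S wild-type flies on 4 Affymetrix Drosophila Genome arrays, 1 per group. The groups were old flies with 100 µM curcumin (a polyphenol of turmeric), old flies without it, young flies with 100 µM curcumin and young flies without it. Old flies were 40 days old and young flies 1 to 3 days, all pools shared a sucrose and yeast diet, and the food without curcumin received ethanol alone. Young adults could have eaten curcumin for at most 3 days, so age and time on curcumin cannot be told apart where the curcumin differences of the ages are set side by side.

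Autophagy encloses cytoplasm in a double membrane and delivers it to the lysosome. A kinase complex around Atg1 starts it, a lipid kinase complex with Atg6 marks the membrane, Atg9 and Atg2 supply lipid, and a pair of ubiquitin-like systems attaches Atg8 to the growing membrane, where receptors such as ref(2)P bring in cargo. In flies the pathway serves the fat body during starvation and the upkeep of muscle and neurons with age. Atg8a is the general Drosophila Atg8, whereas Atg8b is a copy known from the male germline.

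Values are MAS5 signals, the array maker's summary of a probe set, rescaled to a common trimmed mean. A signal under 19.3 units, the floor, was treated as not measurable. All 10 genes were measurable on each of the 4 arrays, and so were between 76.2% and 79.2% of all genes per array. With 1 array per group no group has a spread of its own, so single differences carry no p-value, and the number of arrays limits the precision. As a gauge of error between probe sets, the 2 brightest of each gene with more than 1 were compared on the same arrays. Their log2 differences lay a median of 0.33 apart for age without curcumin (448 genes), 0.32 for age with curcumin (446 genes), 0.24 for curcumin in old flies (450 genes) and 0.20 for curcumin in young flies (468 genes). These gaps leave out variation that both probe sets share, such as that between pools or arrays. Such probe sets may also read different transcripts.

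The labels give 30 males and 30 females per pool, and markers of females were mostly below the floor, against that label. Of 16 female germline, eggshell and yolk genes on the array, 12 were below the floor on every array, including the oocyte genes osk and bcd, with no signal among the 12 above 17.6. The yolk protein gene Yp1, among the most abundant transcripts of adult females, read 27.4 in old flies with curcumin and was below the floor in the other 3 groups. Of the other yolk and eggshell genes, Yp3 was measurable on all 4 arrays, at 43.6 to 57.9, Cp36 on 2 and Yp2 on 1. Of 22 male germline genes, 14 were measurable on every array. The cause was not tested. Markers of some other tissues also moved with age: the median log2 difference of 8 flight muscle genes was -1.78 without and -1.51 with curcumin, and of 9 gut enzyme genes -3.23 and -1.37. In the gut list 1 gene was higher in old flies without curcumin (48.9% of all genes) and 2 with it (49.6%). Among them was Mal-B1, at 2.78 and 2.03. Medians of neuron genes were -0.07 without (8 genes) and -0.31 with curcumin (9 genes). Those of 5 fat body genes were 0.27 and 0.18. The part of tissue makeup in the values below was not tested, and fewer cells of a type cannot be told apart from less RNA per cell in whole-fly pools.

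The general autophagy genes stayed within 2-fold across age and diet, as did most genes measurable on every array. The receptor gene ref(2)P read higher and the germline copy Atg8b lower in old than in young flies on both diets. Over the 4 arrays, 8 of the 10 genes had a range under 2-fold, as did 79.1% of the 8676 genes measurable on every array. Atg8a varied least, by 0.16 on the log2 scale, and ref(2)P and Atg8b most, by 1.20 and 1.16.

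**Figure D1:**
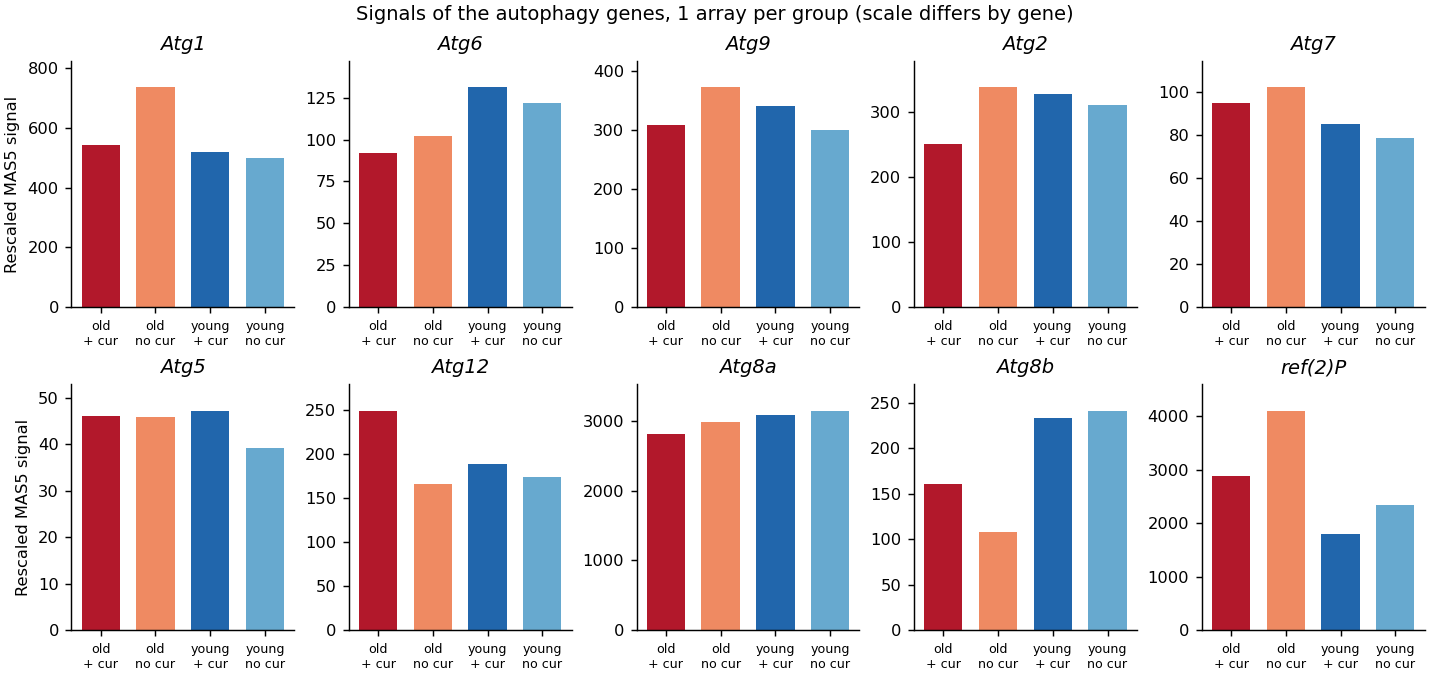
Rescaled MAS5 signal (vertical axis from 0, scale differing by gene) of each autophagy gene in old flies with curcumin, old flies without, young flies with curcumin and young flies without. Each bar is 1 array, so there are no error bars. Atg8a bars lie between 2818 and 3154, ref(2)P is highest at 4109 in old flies without curcumin, and Atg8b is lowest at 108 in the same group.

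Atg1, the kinase that starts autophagosome formation, had signals of 544 in old flies with curcumin, 736 in old flies without, 519 in young flies with curcumin and 501 in young flies without. The array of old flies without curcumin stood above the other 3, which lay close together. Its log2 age difference was 0.56 without curcumin and 0.07 with it. Without curcumin 15.9% of all genes compared had an age difference as high, and with curcumin 43.4%.

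Atg6, the fly Beclin of the lipid kinase complex, read 92.2 in old flies with curcumin, 102 in old flies without, 131 in young flies with curcumin and 122 in young flies without. Both old arrays were below both young arrays. The log2 age difference was -0.25 without curcumin and -0.51 with it, and 33.7% and 12.6% of genes were as low.

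Atg9, the transmembrane protein of the vesicles that seed the membrane, read 309 in old flies with curcumin, 373 in old flies without, 342 in young flies with curcumin and 299.7 in young flies without. Atg2, which transfers lipid into the growing membrane, read 251 in old flies with curcumin, 338 in old flies without, 328 in young flies with curcumin and 310.4 in young flies without. The old and young arrays overlapped for both genes. Their log2 age differences were 0.31 for Atg9 and 0.12 for Atg2 without curcumin. With curcumin they were -0.14 for Atg9 and -0.38 for Atg2, on the other side of 0. The difference between diets, -0.46 for Atg9 and -0.50 for Atg2, could not be tested.

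Atg7, Atg5 and Atg12 belong to the ubiquitin-like conjugation that attaches Atg8 to lipid. Atg7, the activating enzyme of both systems, read 95.2 in old flies with curcumin, 102 in old flies without, 85.2 in young flies with curcumin and 78.9 in young flies without. Both old arrays were above both young ones, by a log2 age difference of 0.37 without and 0.16 with curcumin. Its probe set name marks probes that read several transcripts of 1 gene. Atg5, the partner to which Atg12 is attached, read 46.1 in old flies with curcumin, 45.8 in old flies without, 47.3 in young flies with curcumin and 39.1 in young flies without. The Atg5 arrays were nearly level except for young flies without curcumin, which read lower. Its log2 age difference was 0.23 without curcumin and -0.04 with it, and the second was 0.09 without rescaling and 0.02 with centring on each array's median. Atg5 signals were low, and both age differences were 0.0 with the floor at the 60th percentile. Atg12, the ubiquitin-like protein itself, read 249 in old flies with curcumin, 166 in old flies without, 188 in young flies with curcumin and 173 in young flies without. Its array of old flies with curcumin stood above the other 3. The log2 age difference of Atg12 was -0.06 without curcumin and 0.41 with it, and centring on each array's median turned the first to 0.14.

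Atg8a, the ubiquitin-like protein that is attached to the membrane and serves as the usual autophagosome marker, read 2818 in old flies with curcumin, 2983 in old flies without, 3084 in young flies with curcumin and 3154 in young flies without. The old arrays read slightly below the young ones, with a log2 age difference of -0.08 without curcumin and -0.13 with it. Quantile normalization turned these to 0.09 on both diets, and centring on each array's median turned the first to 0.13, so the direction depended on the scaling. In the additive fit described below, its age effect was -0.11 with a 95% interval of -0.59 to 0.38.

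Atg8b, the copy of the male germline, read 161 in old flies with curcumin, 108 in old flies without, 234 in young flies with curcumin and 242 in young flies without. Both old arrays were below both young arrays, and the young arrays were nearly level. The signal was 2.24-fold lower in old than in young flies without curcumin (log2 difference -1.16) and 1.45-fold lower with curcumin (-0.54). Of all genes compared, 7.47% were as low without curcumin and 11.7% with it. In old flies the log2 difference of curcumin against none was 0.58, and in young flies -0.05.

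Levels of different probe sets cannot be compared on an array, so Atg8b was set against Atg8a through their differences alone. The age difference of Atg8b lay below that of Atg8a by 1.08 without curcumin (-1.16 against -0.08). With curcumin the gap was -0.41 (-0.54 against -0.13), and -0.70 after quantile normalization. For curcumin in old flies, Atg8b lay above Atg8a by 0.66 (0.58 against -0.08). In young flies the gap was -0.02 (-0.05 against -0.03). The comparisons of age without curcumin and of curcumin in old flies share the array of old flies without curcumin, on which Atg8b was lowest. Neither probe set carries a suffix by which the array maker marks probes shared between genes.

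Among other genes of the male germline, 19 were measurable in old or young flies without curcumin, and 16 of these read lower in old flies (51.1% of all genes did). For 5 of the 16 the old array was below the floor, so that they could only read lower, and of the 14 measurable on every array 11 read lower. The median log2 difference over the 19 was -0.21 (all genes -0.02). The 2 at least 2-fold lower were sa, which encodes a testis-specific TAF transcription factor, and betaTub85D, the tubulin of the sperm tail. Of all genes, 9.8% were that much lower. betaTub85D read 795 in old flies with curcumin, 577 in old flies without, 1122 in young flies with curcumin and 1300 in young flies without. Its log2 age differences of -1.17 without and -0.50 with curcumin lay close to those of Atg8b and were larger in size than the list medians. The 3 genes that read higher in old flies without curcumin were dj (0.30), ProtA (0.06) and ProtB (0.06). sa read 49.7 in old flies with curcumin, was below the floor in old flies without, and read 74.8 in young flies with curcumin and 66.4 in young flies without. It was at least 3.44-fold lower in old than in young flies without curcumin. With curcumin, 12 of 20 male germline genes were lower in old flies (50.4% of all genes), with a median of -0.11, which was 0.02 without rescaling. Of the 14 measurable on every array, 8 read lower with curcumin. Summed signals of the 22 male germline genes were 3864 in old flies with curcumin, 3425 in old flies without, 4657 in young flies with curcumin and 5123 in young flies without. Bright genes such as betaTub85D weigh most in these sums, which include signals below the floor. Without curcumin, the bright Mst84Db read 514 in old and 944 in young flies, whereas ProtA read 118 and 113. The medians give each gene the same weight. The part of testis content in the Atg8b values was not tested.

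**Figure D2:**
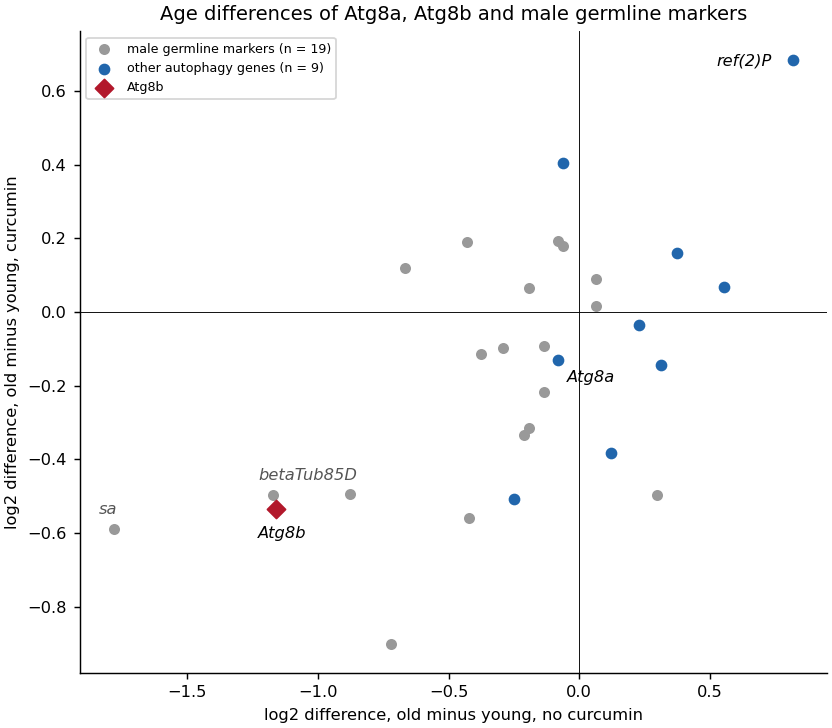
Log2 difference of old minus young flies without curcumin (horizontal) and with curcumin (vertical) for Atg8b (red diamond), the other 9 autophagy genes (blue) and 19 male germline markers (grey), each from 1 array per group. The axes share no array, and signals below the floor were set to it, as for sa in old flies without curcumin. Atg8b lies at -1.16 and -0.54 beside betaTub85D at -1.17 and -0.50, Atg8a lies near the origin at -0.08 and -0.13, and ref(2)P is at the upper right at 0.82 and 0.68. The median of the male germline markers on the horizontal axis is -0.21.

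Over the 4 arrays, the genes whose centred log2 values were nearest to Atg8b were soti, Rbp4, CG17380, CG6790 and tum, at root mean square distances of 0.03 to 0.04, among 8676 genes measurable on every array. Within a distance of 0.1 lay 119 genes. The nearest to Atg8a were Sirt1, Naa30A, mRpL40, superdeath and Smr, at distances of 0.01 to 0.02. Atg8a had a nearly flat pattern, and 974 genes lay within 0.1 of it. With only 4 arrays such likeness is a description.

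ref(2)P, the fly p62, is a receptor that binds ubiquitinated cargo and Atg8 and is itself degraded by autophagy. It read 2877 in old flies with curcumin, 4109 in old flies without, 1792 in young flies with curcumin and 2333 in young flies without. Both old arrays were above both young arrays, and at each age the array with curcumin was the lower. The signal was 1.76-fold higher in old than in young flies without curcumin (log2 difference 0.82) and 1.61-fold higher with curcumin (0.68). As high a difference was found in 7.23% of all genes without curcumin and in 7.76% with it. Curcumin against none gave -0.51 in old and -0.38 in young flies, with 9.27% and 10.2% of genes as low. These signs held under all 3 other scalings. The transcript was measured here, and protein level or turnover was not.

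Counted together, 1 of the 10 genes was at least 2-fold apart with age without curcumin, Atg8b, against 14.0% of 9712 genes compared. With centring on each array's median that gene was ref(2)P (1.02) and Atg8b was at -0.95. With curcumin 0 of 10 were, against 5.62% of 9749 genes. Age differences were above 0 for 6 of 10 without curcumin (48.9% of all genes) and for 4 of 10 with curcumin (49.6%). Median log2 differences were 0.18 and -0.08, beside -0.02 and -0.005 over all genes, and the second was 0.04 without rescaling. Atg1, Atg7 and ref(2)P were higher in old flies on both diets (35.9% of all genes were), Atg6, Atg8a and Atg8b lower on both (36.9% of all genes), and the other 4 differed in sign between diets. The shares are close to those of all genes.

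**Figure D3:**
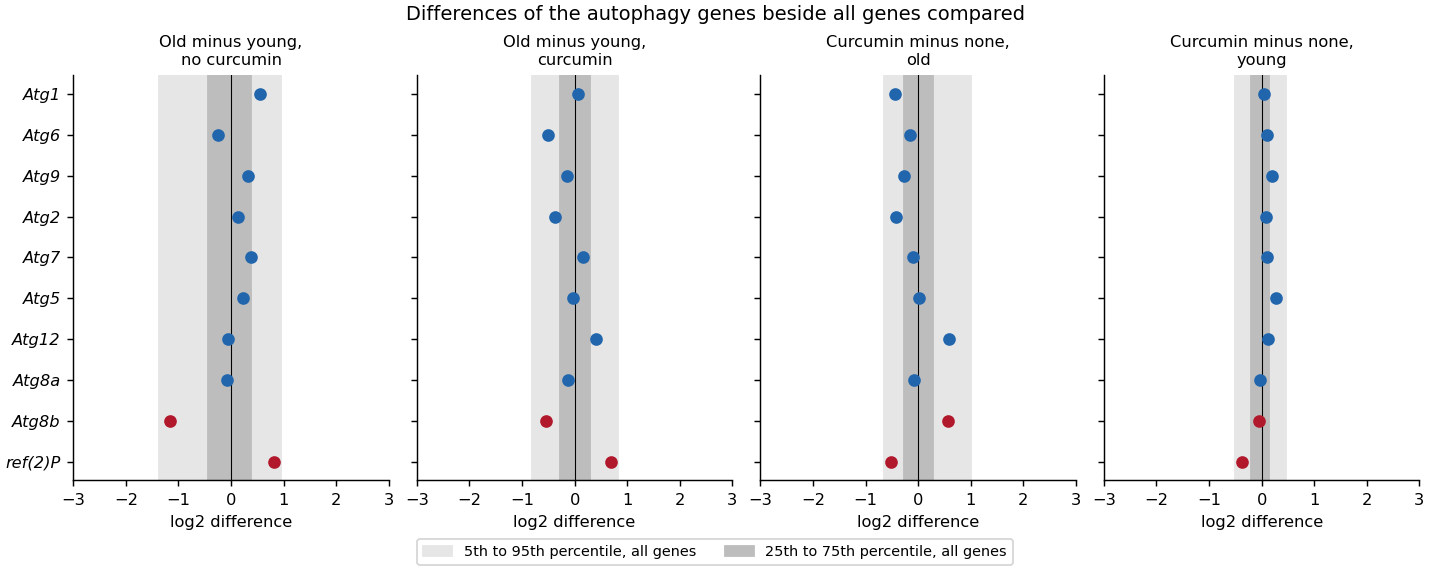
Log2 differences (horizontal axis) of the 10 autophagy genes for old minus young flies without and with curcumin, and for curcumin minus none in old and in young flies, each from 1 array per group. Light grey spans the 5th to 95th and dark grey the 25th to 75th percentile of all genes compared. No gene lies outside the light band in any panel, and ref(2)P and Atg8b, in red, are the outermost for age.

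Between curcumin and none, Atg12 and Atg8b read higher and ref(2)P, Atg1 and Atg2 lower in old flies, and in young flies Atg5 read higher and ref(2)P lower. In old flies 0 of 10 genes were at least 2-fold apart between curcumin and none (6.45% of 9612 genes), and in young flies 0 of 10 (0.789% of 9764 genes). In old flies 3 of 10 were above 0 (48.3% of all genes), with a median of -0.13 (all genes -0.01). The farthest were Atg12 at 0.59, Atg8b at 0.58 and ref(2)P at -0.51, followed by Atg1 at -0.44 and Atg2 at -0.43. In young flies 7 of 10 were above 0 (43.8%), with a median of 0.09 (all genes -0.04), or -0.01 without rescaling, which also turned Atg1 and Atg2 to -0.05 and -0.02. There ref(2)P, at -0.38, and Atg5, at 0.27, were the farthest, and Atg9 was at 0.19. The other 7 lay between -0.05 and 0.12. Tissue markers differed in the same comparisons: 8 of 8 flight muscle genes were above 0 with curcumin at both ages (medians 0.67 in old and 0.75 in young flies). Of all genes, 48.3% were above 0 in old and 43.8% in young flies. Of 9 gut enzyme genes, 8 were above 0 in old flies (median 1.70) and 9 in young flies (median 0.31). In old flies 6 of the 9 were at least 2-fold higher, where 6.45% of all genes were that far apart in either direction. Medians of neuron genes were -0.11 in old and -0.07 in young flies, and those of fat body genes 0.29 and 0.08. The part of tissue makeup in the curcumin differences was not tested.

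An additive model of age and curcumin in limma, fitted over 9562 genes on all 4 arrays with 1 residual degree of freedom, gave the main test. For age it called 0 of the 10 genes at a p below 0.05 after Benjamini-Hochberg adjustment, as it called 0.0% of all genes, and 2 of 10 at an unadjusted p below 0.05 (23.4% of all genes). The 2 were ref(2)P and Atg8b. The age effect of ref(2)P was 0.75 (SE 0.18, 95% interval 0.26 to 1.24), with a limma p of 0.013 and an adjusted p of 0.153. That of Atg8b was -0.85 (SE 0.23, interval -1.49 to -0.21), with a limma p of 0.021 and an adjusted p of 0.169. Effects of the other 8 were between -0.38 for Atg6 and 0.31 for Atg1, with adjusted p from 0.290 up. With limma after centring on each array's median, ref(2)P had an adjusted p of 0.0397, in a fit that called 982 genes. With the other factor left out, limma had 2 residual degrees of freedom and also called 0 genes for age and for curcumin. For curcumin the additive model called 0 of 10 genes and 0.0% of all genes, and 0 of 10 at an unadjusted p below 0.05 (3.6% of all genes). The farthest curcumin effects were -0.45 for ref(2)P (interval -0.94 to 0.04) and 0.35 for Atg12 (-0.22 to 0.93). The intervals of most genes span about 1 log2 unit, so moderate differences in either direction were not detectable with these arrays.

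In old flies without curcumin, most other genes of the autophagy machinery read higher than in young flies without it. Of 33 measured genes, 24 were above 0 (48.9% of all genes), with a median log2 difference of 0.35 beside -0.02 over all genes. Centring on each array's median moved the median of all genes to 0.18 and that of the machinery to 0.56. With curcumin 20 of 33 were above 0 for age (49.6%), with a median of 0.14. For curcumin in old flies 26 of 33 were below 0 (51.7% of all genes), with a median of -0.26 (all genes -0.01), and in young flies 11 of 33 were above 0 (43.8%), with a median of -0.05 (all genes -0.04). The comparison of curcumin in old flies shares the array of old flies without curcumin with the first. On both diets 17 of 33 were higher in old flies, against 35.9% of all genes. In limma 0 of 33 had an adjusted p below 0.05 for age, and 5 had an unadjusted p below 0.05, all higher (11.4% of all genes were called higher in this way). These 5 were Pi3K59F, dor, Plekhm1, BNIP3 and Keap1, named here after their values were seen.

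By step, the median age differences without curcumin were 0.32 for the 3 partners of Atg1 in initiation, 0.35 for 5 nucleation genes, 0.36 for 4 genes of membrane supply and 0.28 for 5 conjugation genes. They were 0.40 for 12 genes of tethering and fusion with the lysosome and 0.61 for 4 genes of selective autophagy. With curcumin the same medians were 0.14, 0.19, 0.16, -0.08, 0.12 and 0.34. Plekhm1 and dor, both of the fusion step, were the 2 genes at least 2-fold higher without curcumin (4.21% of all genes). At least 2-fold lower were 0 (9.8% of all genes). dor, which encodes the Vps18 subunit of the tethering complex, read 57.8 in old flies with curcumin, 133 in old flies without, 42.9 in young flies with curcumin and 63.2 in young flies without. Plekhm1, an adaptor known in mammals to link Rab7 to that complex, read 121 in old flies with curcumin, 211 in old flies without, 88.2 in young flies with curcumin and 99.1 in young flies without. In both genes the array of old flies without curcumin stood apart. Of the machinery, dor alone was 2-fold apart for curcumin in old flies (log2 difference -1.21, against 1.25% of genes at least 2-fold lower).

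**Figure D4:**
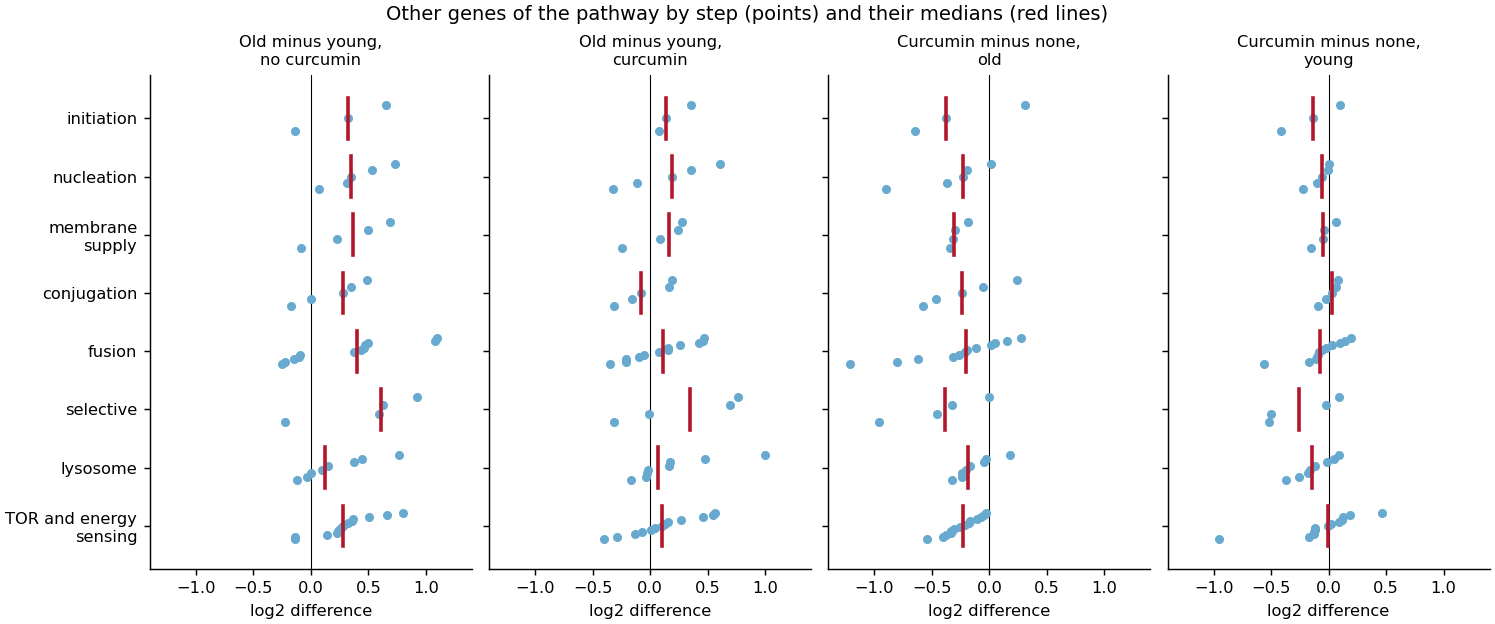
Log2 differences (horizontal axis) of the other autophagy genes by step, with lysosome genes and genes of TOR and energy sensing below, in 4 comparisons of 1 array per group. Each point is a gene and each red line the median of its group. Medians of the 6 machinery steps lie between 0.28 and 0.61 for age without curcumin and between -0.08 and 0.34 for age with curcumin.

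The counterparts of single members followed their own courses. Atg3 and Atg16, which work with Atg7, Atg5 and Atg12, had age differences of -0.17 and 0.49 without and of 0.16 and 0.19 with curcumin. Atg13, the TOR-controlled partner of Atg1, was at -0.14 without and 0.08 with curcumin, and Atg101, another subunit of that complex, at 0.65 and 0.14. Pi3K59F, the lipid kinase Vps34 that works with Atg6, was at 0.53 without and 0.61 with curcumin, whereas Atg6 was below 0 on both diets. Keap1, which restrains the stress factor Cnc, was at 0.59 and 0.77. These 6 were picked as partners of the members and after their values were seen.

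Lysosomal genes had a median age difference of 0.12 without and 0.07 with curcumin over 8 genes. These medians depended on processing: quantile normalization gave 0.30 and 0.33, and the floor at the 60th percentile gave 0.09 and -0.02. Members of the list differed widely, and those named here were picked after their values were seen. spin, a lysosomal transporter gene, was at 0.44 without and 0.995 with curcumin, and Mitf, the transcription factor of lysosomal genes, at 0.76 and 0.47, where the array of young flies without curcumin was below the floor. The cathepsin gene CtsL1 was at -0.04 and -0.02, and the membrane protein gene Lamp1 at 0.001 and -0.04. In limma, spin and Mitf had an adjusted p of 0.186 each for age. Genes of TOR and energy sensing had a median age difference of 0.28 without curcumin (12 of 14 above 0, against 48.9% of all genes). With curcumin the median was 0.11 (9 of 13 above 0, against 49.6%). At least 2-fold apart with age were 0 of 14 without curcumin (14.0% of all genes) and 0 of 13 with it (5.62%). The list was not divided by how its genes act on TOR, and TOR activity was not measured. For curcumin in old flies, all 14 were below 0 (51.7% of all genes), with a median of -0.23. That comparison and age without curcumin share the array of old flies without curcumin. Of the 14, alc was measurable on that array alone (23.0). It could therefore only read above 0 for age without curcumin and below 0 for curcumin in old flies.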

How the data were processed

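The 4 columns of the deposited table were read as MAS5 signals on the log2 scale, 1 row per probe set. The submitters' processing notes name MAS5 without a version. Values ran from -4.67 to 13.4, some below 0, and the log base, scaling target and direction of any centring are not stated. The log base was taken as 2, and all fold differences rest on that choice. The back-transformed trimmed means were alike across arrays (139 to 151), which cannot tell base 2 from another base. Array medians of the deposited log2 values were 5.29 (old with curcumin), 5.18 (old without), 5.23 (young with) and 5.36 (young without).

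Signals were back-transformed, rescaled to a common 2% trimmed mean, floored at the pooled 40th percentile (19.3) and log2-transformed. Of 18769 probe sets, 13647 named 1 gene, 402 several and 4720 none here. Of the 13647, 13544 matched the gene table of Release 6 by gene number. The brightest probe set stood for the 1094 genes with several. A gene reaching the floor was called measurable, differences were compared over genes measurable in at least 1 array of a pair, and 2-fold was the size counted. limma 3.58.1 (R 4.3.3) fitted age and curcumin additively over 9562 genes measurable in 2 or more arrays, and p-values were adjusted by Benjamini-Hochberg. The prior SD was 0.20 with 3.09 degrees of freedom, and the residual holds noise and interaction together. Nothing in the labels says that pools came from separate cultures, so p-values do not measure spread between cultures. With 1 array per group, p-values of the additive fit rest on departures from additivity pooled over genes, not on spread between replicate arrays. The fit was also run on simulated data, with noise drawn from its own prior and no interaction. That run cannot check the p-values of these arrays.

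Members and lists were chosen with earlier results of these data known. Named genes were all members, list genes at least 2-fold apart (up to 3 each way per pair) and the 5 genes nearest to Atg8a and Atg8b. Other names were chosen after their values were seen. Alternatives were other scalings, floors, a pseudocount, the mean over probe sets, other limma settings and leaving out each array. Scripts ran in Python 3.11.15 with numpy 2.4.6.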

Additional observations from a re-analysis of the deposited data

Results flagged for a closer look

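With 1 array per group, each of these differences was singled out because its sign was opposite at the 2 diets or the 2 ages, and none was tested. For age, the difference with curcumin minus that without was -0.50 for Atg2 (-0.38 against 0.12), -0.46 for Atg9 (-0.14 against 0.31), -0.26 for Atg5 (-0.04 against 0.23) and 0.47 for Atg12 (0.41 against -0.06). For curcumin, the difference in old minus that in young flies was 0.63 for Atg8b (0.58 against -0.05), -0.49 for Atg1 (-0.44 against 0.05), -0.26 for Atg6 (-0.15 against 0.11) and -0.21 for Atg7 (-0.10 against 0.11). For Atg2 and Atg9 the curcumin differences were also of opposite sign, -0.43 in old against 0.08 in young flies and -0.27 in old against 0.19 in young flies, with the same -0.50 and -0.46 between them by construction. Without rescaling, the curcumin differences of Atg1 and Atg2 in young flies turned to -0.05 and -0.02, and the age difference of Atg5 with curcumin to 0.09, so that their opposite signs were gone. Centring on each array's median gave 0.02 for Atg5 and turned the age difference of Atg12 without curcumin to 0.14, with the same effect. With the floor at the 60th percentile both age differences of Atg5 were 0.0. For scale, the log2 differences of 2 probe sets of a gene lay within 0.60 to 0.96 of each other in 90% of such genes, depending on the comparison. Both probe sets were read on the same arrays, so variation between pools or arrays is left out of these gaps.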

How the results depend on the processing

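For age without curcumin, Atg8b was the 1 gene at least 2-fold apart except under 2 scalings. Quantile normalization gave 2, Atg8b (-1.19) and ref(2)P (1.00), and centring on each array's median gave 1, ref(2)P (1.02), with Atg8b at -0.95. Quantile normalization also moved the gap between Atg8b and Atg8a for age with curcumin to -0.70 (main -0.41). Centring on each array's median gave 1 gene called by limma for age, ref(2)P, in place of 0, and 982 of all genes in place of 0, while the floor at the 60th percentile called 8 of all genes. Leaving out 1 array reduces each effect to the remaining pair with no residual degree of freedom, so limma calls could not be made. The age effect of Atg8b was then -0.54 without either array lacking curcumin and -1.16 without either array with it, and its curcumin effect -0.05 or 0.58. Of the 40 member differences, 7 changed sign under another scaling, none larger than 0.13. Centring moved the median of all genes to 0.18 for age without curcumin and -0.13 for curcumin in old flies, and no rescaling to 0.12 for age with curcumin and -0.13 for curcumin in young flies. Other counts that moved were the machinery genes above 0 for curcumin, 2 in place of 11 in young flies without rescaling and 4 in place of 7 in old flies with centring. No paired analysis was possible because each group has 1 array.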
